A study of Saccharomyces cerevisiae with 6 samples.

Results

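The autophagy-related genes of Saccharomyces cerevisiae were examined as the rows of the deposited table whose gene symbol is ATG followed by a number, which gave 32 of 7127 features. Autophagy carries cytoplasm and organelles to the vacuole, the degradative compartment of yeast. A kinase complex starts a cup-shaped membrane, lipid transfer and small vesicles extend it, the ubiquitin-like protein Atg8 is attached to its lipids, and the closed autophagosome fuses with the vacuole, where its content is broken down. Selective forms use receptors that tie a cargo, such as a mitochondrion or a vacuolar enzyme, to Atg8. The same core machinery serves the Cvt (cytoplasm-to-vacuole targeting) pathway, which delivers the aminopeptidase Ape1 in growing cells.

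Poly(A)-selected RNA came from 1 wild-type prototrophic strain, CGY4.51 (genotype label MAT@), in 2 groups of 3 biological replicates. Young cells were sampled from an exponentially growing culture, and aged cells after 24 h in a ministat aging device, in which bead-labelled mothers are retained while their daughters are washed away. Age and culture system therefore cannot be told apart, nor, in bulk RNA, can fewer cells of a kind and less transcript per cell. The labels also give each young library a batch number shared with the aged library of the same replicate number. The libraries held 29230292 to 41650202 estimated counts, and 6755 features passed the filter on low counts. All 32 ATG genes passed it, with at least 112 estimated counts in every library. Levels are given as CPM, the counts of a feature in 1000000 counts of a library scaled by the trimmed mean of M-values (TMM), and differences as log2 fold changes of aged over young from edgeR's quasi-likelihood test, with p-values adjusted over all tested features. These p-values weigh a difference against the spread among 3 replicates per group.

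Markers of the alpha mating type were abundant, with 4386 to 5375 CPM in sum over 4 genes in young and 3389 to 3718 CPM in aged libraries. Of these 4, 1 was higher and 2 were lower, among them MF(ALPHA)2, whose young mean was 549 CPM and whose aged mean was 184 CPM. The 7 markers of the a mating type summed to 32.3 to 39.4 and 38.5 to 41.6 CPM, and 4 of them were higher and 0 lower. The largest of these rises was in AGA2, from a mean of 0.624 to 2.40 CPM. The 10 markers of daughter cells summed to 1148 to 1226 CPM in young and 1357 to 1493 CPM in aged libraries, with 6 higher and 1 lower. No listed marker was at 0, and the part of these cells in the results below was not tested. Among the young libraries, replicate 2 stood apart for the ATG genes. It was the lowest young library for 14 of the 16 genes called higher in aged cells and the highest for all 6 called lower, so the counts are also given without it. The same position was not counted over all features. The TMM factor of young replicate 2, 0.765, was also the lowest of all libraries.

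ATG transcripts differed between young and aged cells in both directions. By role, 6 of 8 genes on the receptor and scaffold list were higher and 0 lower, and 2 of 2 vacuolar genes were higher. Lipidation had 4 higher and 2 lower of 8, and Atg9 cycling and lipid transfer 2 and 1 of 6. Induction had 1 higher and 2 lower of 4, and the PI3K complex and its effectors 1 and 1 of 4. ATG10 and ATG12, of the Atg12 conjugation system, fell most. Of the 32 genes, 16 were higher in aged cells at an adjusted p under 0.05, 6 were lower and 10 did not pass. These are 50% and 18.8% of the genes, against 32.7% and 30.8% of all 6755 tested features (63.5% in either direction, which 22 of the 32 ATG genes passed). Log2 fold change also fell with the young level in CPM, at a Spearman rho of −0.573 over the ATG genes and −0.453 over annotated features. The part of level in these shares was not tested. The median log2 fold change was 0.26 over the ATG genes and 0.025 over all features, and the ATG values ran from −1.04 to 1.06. Every aged library lay above every young one for 18 genes and below for 6, where 36.3% and 33.7% of all features did so. Without young replicate 2, 17 genes were higher and 5 lower, beside 2114 and 2021 of 6770 tested features. Within the 3 batches, 21, 22 and 21 of the 32 genes were higher in the aged library. Their median log2 ratios were 0.17, 0.28 and 0.23, beside 0.014, 0.039 and 0.020 over all tested features. The share of all features above 0 was not counted within batches, and in the main fit it was 3508 of 6755.

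Summed over the 32 genes, the level was 1004 to 1043 CPM in young and 1028 to 1075 CPM in aged libraries, ranges that overlapped. As a share of all counts, the same genes took 0.0798% to 0.0903% of young and 0.123% to 0.129% of aged libraries. The comparison of directions thus depends on the scaling. With total counts only, 27 ATG genes were higher and 2 were lower, beside 4639 and 562 of all 6755 features. The median of all features was then 0.54 on the log2 scale. The ATG median of 0.77 lay 0.24 above it, the same distance as with TMM. Of the 22 calls, 14 held in each of the 19 alternatives: ATG3, ATG4, ATG7, ATG8, ATG15, ATG19, ATG22, ATG26, ATG29, ATG32, ATG33 and ATG34 among the rises, and ATG10 and ATG12 among the falls. Total counts only shifts values upward and so removes falls more readily than rises. With that setting left aside 16 calls held, which adds the falls of ATG13 and ATG14.

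**Figure D1:**
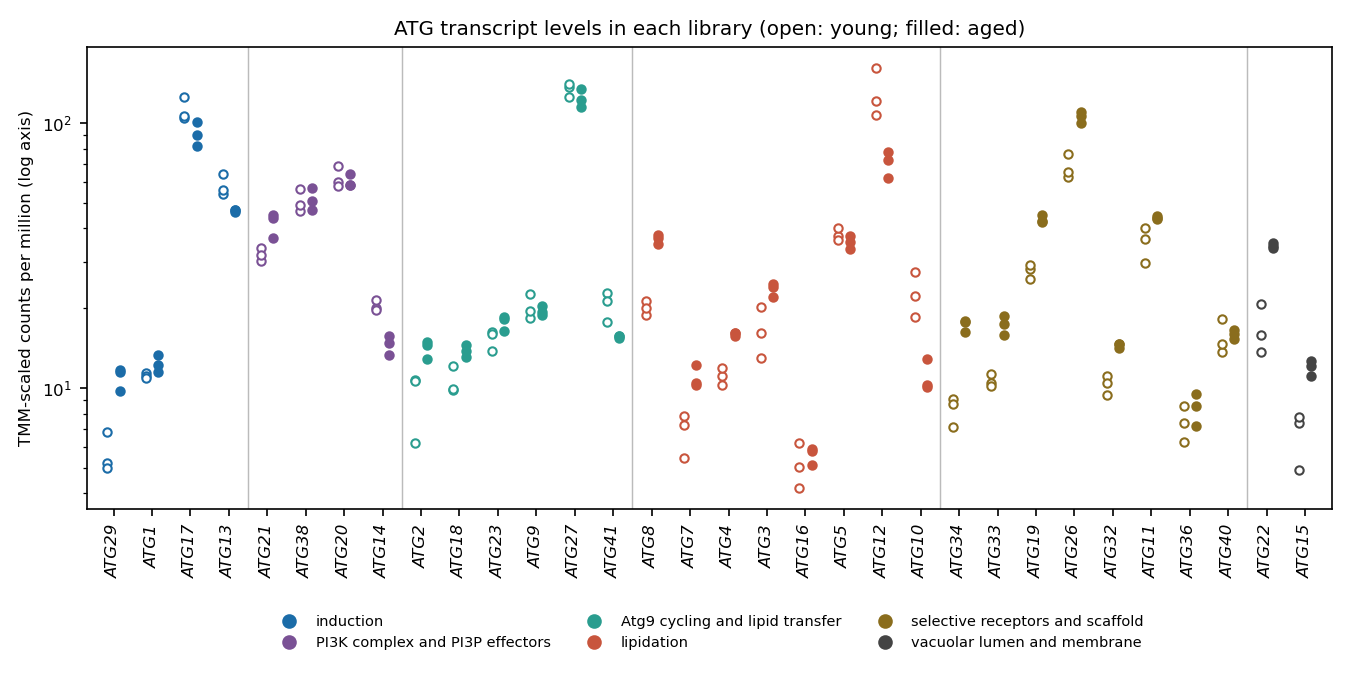
Levels of the 32 ATG genes in each library, in TMM-scaled CPM on a log axis and not corrected for gene length. Open circles are the 3 young and filled circles the 3 aged libraries, colours mark roles, and every aged library lies above every young one for 18 genes and below for 6.

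Per kilobase of coding length, ATG transcripts spanned a wide range. In young cells the highest was ATG12, a ubiquitin-like modifier, at 231 ± 50.3 CPM per kb (mean ± SD, n = 3), followed by ATG27 at 164 ± 9.67 and ATG17 at 89.3 ± 9.59 CPM per kb. The lowest were ATG2, at 1.92 ± 0.542, ATG7, at 3.61 ± 0.665, and ATG1, at 4.14 ± 0.0920 CPM per kb, which encode a lipid transfer protein, the activating enzyme of both conjugation systems and the initiating kinase. In aged cells ATG27 led, at 151 ± 12.0, before ATG12, at 126 ± 14.6, and ATG8, at 103 ± 4.45 CPM per kb. In young cells ATG8 was at rank 5, with 56.5 ± 3.55 CPM per kb. ATG10 moved from rank 7 to rank 14 and ATG34 from rank 27 to rank 20. Ranks of neighbours such as ATG9, ATG34 and ATG32 in young cells, at 6.74 ± 0.739, 6.68 ± 0.841 and 6.50 ± 0.535 CPM per kb, did not differ beyond their spread.

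Autophagy is induced through the kinase Atg1, its partner Atg13 and a scaffold of Atg17, Atg29 and Atg31 that is used in bulk autophagy. Of the 4 genes listed by symbol, ATG29 was higher, ATG13 and ATG17 were lower, and ATG1 did not pass. ATG29 stood at 6.83, 5.20 and 4.98 CPM in young libraries 1 to 3 and 11.7, 9.73 and 11.5 CPM in aged libraries 1 to 3. The aged libraries were all above the young ones, a log2 fold change of 0.95 (edgeR adjusted p = 0.000258, SE 0.14). ATG29 overlaps SET6 on the opposite strand by 24 bp, the only overlap of an ATG member with another gene of the RefSeq annotation. Features outside that annotation were not searched, and the strand setting of the counting is not given in the sources used here. ATG13, which carries the signal of the TOR kinase to Atg1, stood at 53.8, 64.05 and 56.0 CPM in young libraries 1 to 3 and 46.2, 47.1 and 46.9 CPM in aged libraries 1 to 3. Its aged libraries lay close together and below all young ones, a difference of −0.31 (edgeR adjusted p = 0.00545, SE 0.078). ATG17 stood at 104, 126 and 106 CPM in young libraries 1 to 3 and 90.5, 101 and 82.0 CPM in aged libraries 1 to 3, with the aged libraries lower, a log2 fold change of −0.30 (edgeR adjusted p = 0.0235, SE 0.099). The fall of ATG17 was not seen with an offset on GC content (0.10, edgeR adjusted p = 0.301) and did not pass without young replicate 2 (−0.20), aged replicate 1 (−0.29) or aged replicate 3 (−0.22). With total counts only, ATG13 was at 0.21 and ATG17 at 0.22. Against the median feature under that scaling these values are −0.33 and −0.32.

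ATG1 itself had 11.4, 11.1 and 10.9 CPM in young libraries 1 to 3 and 12.2, 13.3 and 11.5 CPM in aged libraries 1 to 3. Its aged libraries were slightly above the young ones, with a log2 fold change of 0.15 (95% confidence interval −0.069 to 0.37) that did not pass (edgeR adjusted p = 0.206). It passed with the offset on GC content (0.29, edgeR adjusted p = 0.0249). ATG31, listed in the table under its locus tag YDR022C and so not counted among the 32, had a log2 fold change of −0.34 (edgeR adjusted p = 0.0183, SE 0.11), and its groups overlapped. It did not pass with the offset on GC content (−0.15) or without young replicate 3 (−0.34), aged replicate 1 (−0.29) or aged replicate 3 (−0.29). Within a library, the level of ATG29 per level of ATG17, both per kb, was 0.128, 0.0806 and 0.0917 in young libraries 1 to 3 and 0.252, 0.188 and 0.274 in aged libraries 1 to 3. This pair was taken after the values were seen, and library scaling cancels in such a ratio.

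Nucleation of the membrane needs the phosphatidylinositol 3-kinase Vps34, which Atg14 brings to the site of formation with Vps30 and Atg38, and proteins that bind its lipid product. Of the 4 genes here, 1 was higher, 1 was lower and 2 did not pass. ATG14 stood at 20.0, 21.5 and 19.6 CPM in young libraries 1 to 3 and 14.8, 15.7 and 13.3 CPM in aged libraries 1 to 3. The groups were separate, with a log2 fold change of −0.48 (edgeR adjusted p = 0.00116, SE 0.092). Scaled by total counts, it was at 0.036, which lies −0.50 from the median feature. VPS30, the other subunit that was lower, had 35.5, 44.98 and 45.2 CPM in young libraries 1 to 3 and 24.0, 25.5 and 25.8 CPM in aged libraries 1 to 3, a log2 fold change of −0.74 (edgeR adjusted p = 0.000115, SE 0.098). It did not pass with total counts only (−0.22, edgeR adjusted p = 0.0754). VPS34 and VPS15, which encode the kinase and its regulatory subunit, had log2 fold changes of 0.11 and −0.19 and did not pass (edgeR adjusted p = 0.276 and 0.0935), nor did ATG38 (0.029, edgeR adjusted p = 0.801). ATG38 passed with the offset on GC content, at 0.47 (edgeR adjusted p = 0.00266).

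ATG21, whose product binds phosphatidylinositol 3-phosphate and helps to place the lipidation machinery, stood at 33.7, 30.2 and 31.8 CPM in young libraries 1 to 3 and 45.04, 36.7 and 43.9 CPM in aged libraries 1 to 3. All aged libraries were higher, with aged replicate 2 nearest to the young ones, a difference of 0.39 (edgeR adjusted p = 0.00357, SE 0.091). It did not pass with the offset on coding length (0.20, edgeR adjusted p = 0.0533). ATG20, a sorting nexin of the Cvt pathway, had a log2 fold change of −0.044 and did not pass (edgeR adjusted p = 0.656), though it did with the offset on coding length and the replicate block together (−0.20). Its partner SNX4 was lower, at −0.25 (edgeR adjusted p = 0.0218, SE 0.081).

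**Figure D2:**
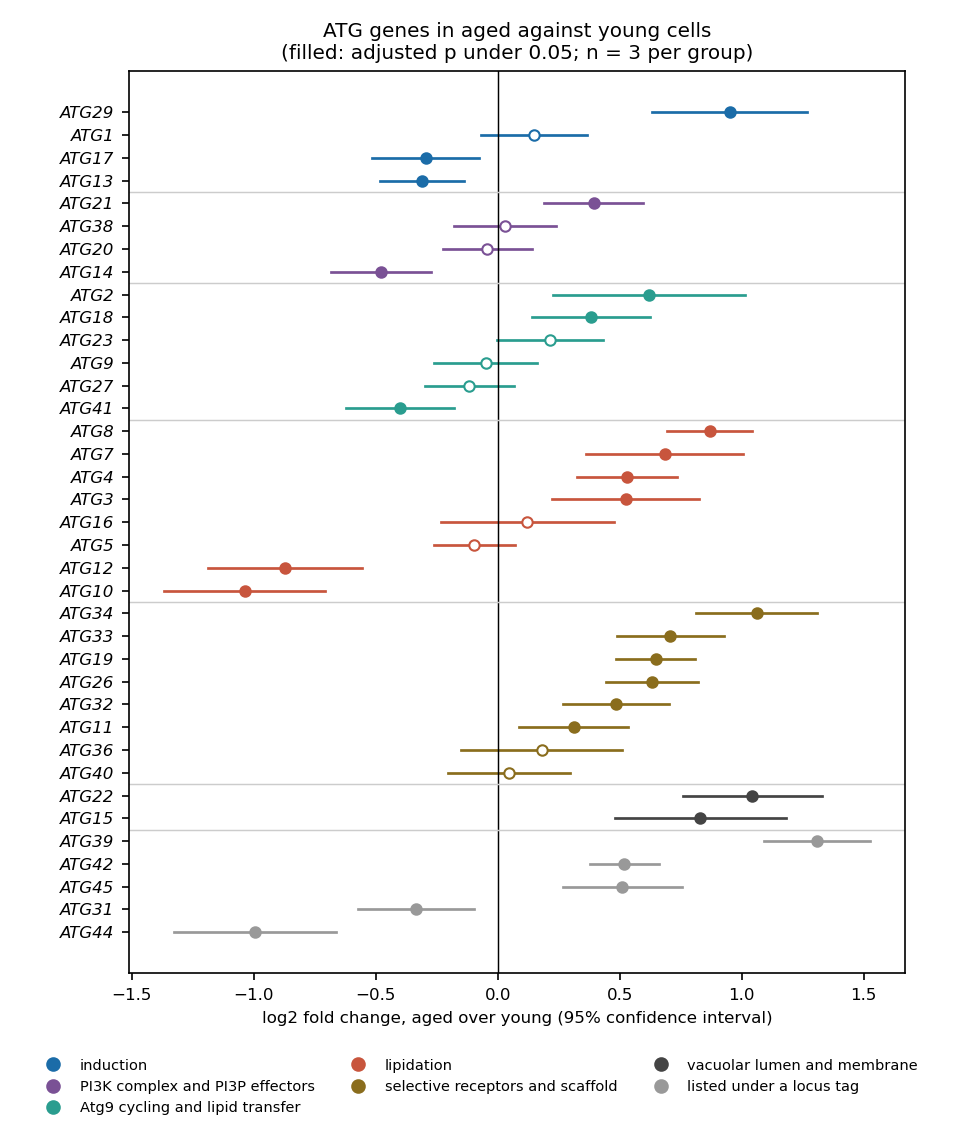
Log2 fold change of aged over young cells for the 32 ATG genes by role and for 5 further ATG genes that the table lists under locus tags, with 95% confidence intervals (3 libraries per group). Filled points passed an adjusted p of 0.05. With TMM scaling the receptor and scaffold list (with ATG26 and ATG33) and the vacuolar genes lie to the right of 0 among the 32. ATG36 and ATG40 do not in every alternative. The lipidation group runs from −1.04 for ATG10 to 0.87 for ATG8. ATG44, on the receptor and scaffold list but under a locus tag, lies at −0.99.

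Atg9 is a lipid scramblase in small vesicles that seed the membrane. Atg23, Atg27 and Atg41 act in its trafficking, and Atg2 with Atg18 moves lipids into the growing cup and returns Atg9. Of these 6 genes, 2 were higher, 1 was lower and 3 did not pass. ATG9 stood at 18.4, 22.6 and 19.5 CPM in young libraries 1 to 3 and 20.3, 18.9 and 19.3 CPM in aged libraries 1 to 3. The groups overlapped, and the log2 fold change of −0.050 (95% confidence interval −0.26 to 0.16) did not pass (edgeR adjusted p = 0.657). ATG2 stood at 10.7, 6.18 and 10.6 CPM in young libraries 1 to 3 and 14.5, 12.9 and 14.9 CPM in aged libraries 1 to 3. Young replicate 2 was low, and the difference was 0.62 (edgeR adjusted p = 0.0112, SE 0.18) with it and 0.40 (edgeR adjusted p = 0.00481) without it. ATG18 stood at 12.1, 9.80 and 9.94 CPM in young libraries 1 to 3 and 13.8, 13.1 and 14.5 CPM in aged libraries 1 to 3, a log2 fold change of 0.38 (edgeR adjusted p = 0.0112, SE 0.11). That call was lost with the offset on GC content (0.10, edgeR adjusted p = 0.435) or coding length (0.19, edgeR adjusted p = 0.127) and without aged replicate 3 (0.34, edgeR adjusted p = 0.0521).

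ATG41 ran the other way, from 17.8, 22.8 and 21.2 CPM in young libraries 1 to 3 to 15.4, 15.7 and 15.7 CPM in aged libraries 1 to 3. The 3 aged values were nearly the same and below all young ones, a log2 fold change of −0.40 (edgeR adjusted p = 0.00544, SE 0.10). It lost its call with the offset on coding length (−0.21, edgeR adjusted p = 0.0630). Scaled by total counts it was at 0.12, which lies −0.42 from the median feature. ATG23 and ATG27 had log2 fold changes of 0.21 and −0.12 and did not pass (edgeR adjusted p = 0.0784 and 0.233), although each aged library of ATG23 was above each young one. With the offset on GC content, ATG23 passed as higher (0.26, edgeR adjusted p = 0.0409) and ATG27 as lower (−0.37, edgeR adjusted p = 0.00221), as ATG27 did with the offset on coding length and the replicate block together (−0.16). ATG23 also passed with upper-quartile scaling (0.28, edgeR adjusted p = 0.0260) and without young replicate 2 (0.26, edgeR adjusted p = 0.0400).

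Lipidation gave the widest split. In the Atg8 system, the protease Atg4 trims Atg8, Atg7 activates it and Atg3 passes it to phosphatidylethanolamine. In the Atg12 system, Atg7 again activates, Atg10 conjugates Atg12 to Atg5, and Atg16 binds the product, which then helps Atg3. The 4 genes of the Atg8 system, with the shared ATG7, were all higher in aged cells. Of the 4 genes particular to the Atg12 system, ATG12 and ATG10 were lower, and ATG5 and ATG16 did not pass.

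ATG8 stood at 21.3, 18.8 and 20.0 CPM in young libraries 1 to 3 and 34.8, 36.8 and 37.9 CPM in aged libraries 1 to 3. All aged libraries were well above the young ones, a log2 fold change of 0.87 (edgeR adjusted p = 1.20e-05, SE 0.078), or 1.83-fold. ATG7 stood at 7.82, 5.42 and 7.27 CPM in young libraries 1 to 3 and 10.5, 10.2 and 12.2 CPM in aged libraries 1 to 3, a difference of 0.68 (edgeR adjusted p = 0.00207, SE 0.14), with young replicate 2 lowest. The remaining genes of the Atg8 system rose less. ATG4 stood at 10.3, 11.0 and 11.9 CPM in young libraries 1 to 3 and 15.7, 16.1 and 16.1 CPM in aged libraries 1 to 3, a difference of 0.53 (edgeR adjusted p = 0.000622, SE 0.092). ATG3 stood at 20.1, 13.0 and 16.1 CPM in young libraries 1 to 3 and 22.1, 24.6 and 24.0 CPM in aged libraries 1 to 3, a difference of 0.52 (edgeR adjusted p = 0.00648, SE 0.14), with young replicate 2 again lowest. ATG12 went from 107, 161 and 121 CPM in young libraries 1 to 3 to 72.5, 78.1 and 61.9 CPM in aged libraries 1 to 3. The young libraries were spread and all above the aged ones, a log2 fold change of −0.87 (edgeR adjusted p = 0.000410, SE 0.14). It was −0.69 without young replicate 2 (edgeR adjusted p = 3.17e-05). ATG10 went from 18.5, 27.3 and 22.3 to 10.2, 12.9 and 10.1 CPM in libraries 1 to 3 of each group. This was the largest fall among the members, −1.04 (edgeR adjusted p = 0.000183, SE 0.15), and −0.88 without young replicate 2. Both genes were lower with total counts only as well, at −0.35 for ATG12 and −0.52 for ATG10.

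ATG5 and ATG16 had log2 fold changes of −0.096 (95% confidence interval −0.26 to 0.069) and 0.12 (−0.23 to 0.47), and their groups overlapped. ATG5 passed as lower with the offset on coding length (−0.18, edgeR adjusted p = 0.0485). Per kb, the level of ATG8 per level of ATG12 was 0.315, 0.184 and 0.262 in young libraries 1 to 3 and 0.761, 0.748 and 0.971 in aged libraries 1 to 3, a 3.26-fold difference of the means in which library scaling cancels. That of ATG3 per ATG10, the conjugating enzymes of the Atg8 and Atg12 systems, was 0.588, 0.257 and 0.389 in young libraries 1 to 3 and 1.17, 1.03 and 1.29 in aged libraries 1 to 3. Both pairs were taken after the values were seen, so no test is given.

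**Figure D3:**
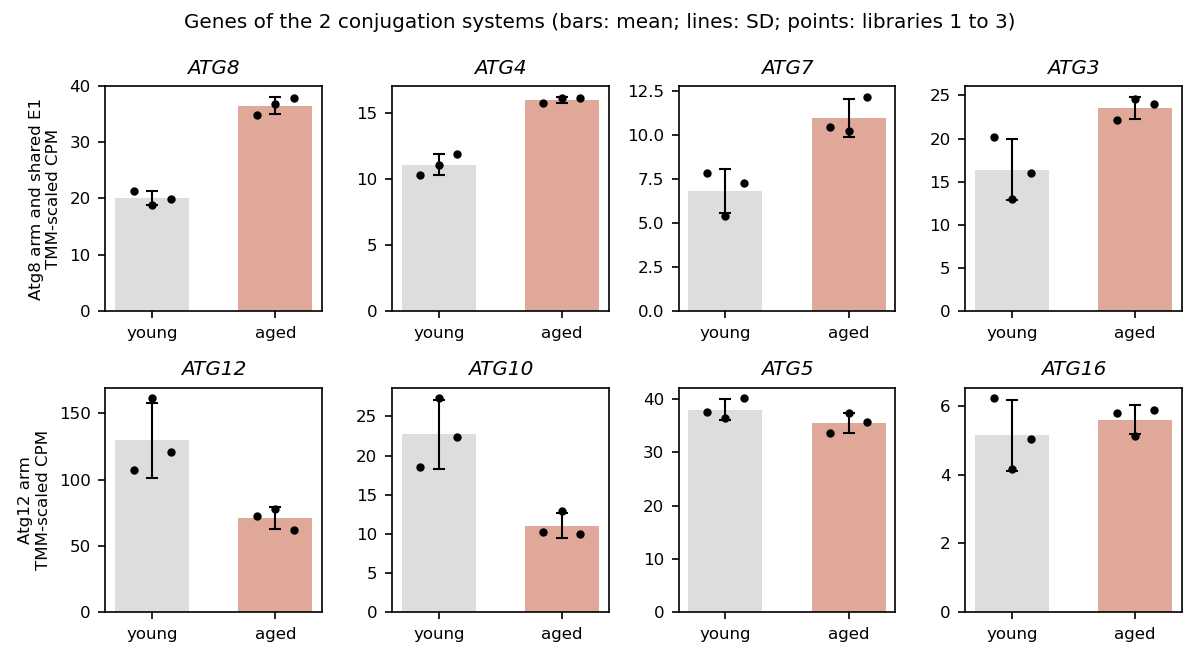
Levels of the genes of the Atg8 system with the shared ATG7 (top) and of the Atg12 system (bottom), in TMM-scaled CPM with axes that start at 0. Bars are means, lines are SD (n = 3) and points are libraries 1 to 3; the top 4 genes are higher in every aged library, while ATG12 and ATG10 are lower in every aged library.

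Since the ATG8 and ATG12 genes moved apart, the 300 bases before each coding start were read from the R64 genome and searched on both strands for 4 short motifs. These were AGGGG, the stress element bound by Msn2 and Msn4 and also by the demethylase Rph1, GATAAG, bound by GATA factors such as Gln3 and Gat1, TGACTC, bound by Gcn4, and GCCGCC, the core of the site of the repressor Ume6. The stretches before ATG8 (chrII:80732-81031, minus strand) and ATG12 (chrII:657532-657831, plus strand) are printed to show this contrast, in lower case with motif matches on either strand in capitals. In the RefSeq annotation the first lies wholly between genes, while the gene before ATG12, YBP1, ends 231 bases from ATG12, so the printed stretch starts inside YBP1.
ATG8: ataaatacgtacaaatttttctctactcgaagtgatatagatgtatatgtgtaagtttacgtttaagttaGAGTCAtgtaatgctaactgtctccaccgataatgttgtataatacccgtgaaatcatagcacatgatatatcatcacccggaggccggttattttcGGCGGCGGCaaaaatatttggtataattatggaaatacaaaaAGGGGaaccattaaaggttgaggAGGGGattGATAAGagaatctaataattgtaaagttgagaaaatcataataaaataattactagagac
ATG12: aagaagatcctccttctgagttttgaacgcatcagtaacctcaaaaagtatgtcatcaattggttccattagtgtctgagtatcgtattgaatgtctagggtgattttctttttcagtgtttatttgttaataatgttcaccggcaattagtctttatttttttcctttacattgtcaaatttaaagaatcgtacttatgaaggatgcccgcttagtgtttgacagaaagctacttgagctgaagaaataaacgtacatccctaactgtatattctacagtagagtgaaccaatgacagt
ATG8 held all 4 motifs, and it was the only 1 of the 6001 protein-coding genes searched that did so. The motifs were picked as sites of known regulators, among them Ume6, a repressor of ATG8, so the choice may have favoured this gene. Whether 1 such gene is more than the separate frequencies of the 4 motifs would give was not tested. From the start codon, its matches began 230 bases before it for TGACTC, 133 and 130 for 2 overlapping copies of GCCGCC, 91 and 68 for AGGGG and 60 for GATAAG. ATG12 held none. A match of letters is not evidence of binding, and a missing one says only that these letters were not in this window.

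Over the 32 ATG genes, GATAAG was present before 11 (34.4%, against 14.7% of all genes searched), AGGGG before 9 (28.1% against 22.2%), TGACTC before 4 (12.5% against 7.77%) and GCCGCC before 2 (6.25% against 5.20%). Among the 16 genes that were higher in aged cells, 8 held GATAAG, 6 AGGGG, 4 TGACTC and 2 GCCGCC. Among the 6 that were lower, 1 held GATAAG (ATG14) and 1 AGGGG (ATG10), and 0 held TGACTC or GCCGCC. No motif was found before 16 of the 32 genes, and these include ATG22, ATG7, ATG3 and ATG2, which were higher.

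The list of selective receptors and their scaffold held 8 genes found by symbol, among them ATG33 and ATG26, which are not receptors themselves. Of the 8, 6 were higher (75%, against 32.7% of all features), ATG33 and ATG26 included, and 0 were lower. ATG39 and ATG44, listed for the same role but under locus tags, lie outside the 8. ATG39 was higher (1.31) and ATG44 lower (−0.99). Over the 8 genes the median log2 fold change was 0.56, and all 8 values were above 0 with TMM, while ATG36 was below 0 with the offset on GC content and ATG40 without young replicate 1. Their summed level was 171 to 195 CPM in young and 261 to 269.9 CPM in aged libraries. ATG34 and ATG19 encode related receptors that bind vacuolar enzymes as cargo and are neighbours on chromosome XV, 1774 bp apart. ATG34 stood at 9.07, 7.10 and 8.66 CPM in young libraries 1 to 3 and 17.7, 16.2 and 17.8 CPM in aged libraries 1 to 3. Every aged library was far above the young ones, and this was the largest rise among the members, 1.06 (edgeR adjusted p = 3.03e-05, SE 0.11), or 2.09-fold. ATG19 stood at 28.1, 25.8 and 29.01 CPM in young libraries 1 to 3 and 42.3, 42.6 and 44.8 CPM in aged libraries 1 to 3, a difference of 0.65 (edgeR adjusted p = 4.51e-05, SE 0.073). The level of ATG19 per level of ATG34, both per kb, was 3.07, 3.61 and 3.33 in young libraries 1 to 3 and 2.38, 2.61 and 2.50 in aged libraries 1 to 3. ATG19 thus stood above ATG34 in each library, by a smaller ratio in each aged one. The upstream stretches of ATG19 (chrXV:168427-168726, plus strand) and ATG34 (chrXV:165414-165713, plus strand) lie between genes and are printed to compare neighbours that both rose, with the same motifs in capitals.
ATG19: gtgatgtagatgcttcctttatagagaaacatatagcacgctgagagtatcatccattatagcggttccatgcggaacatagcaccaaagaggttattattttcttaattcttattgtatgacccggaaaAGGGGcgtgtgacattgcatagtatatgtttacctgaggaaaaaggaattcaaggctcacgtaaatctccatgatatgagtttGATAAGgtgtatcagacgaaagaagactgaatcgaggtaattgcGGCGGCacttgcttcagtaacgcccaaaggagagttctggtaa
ATG34: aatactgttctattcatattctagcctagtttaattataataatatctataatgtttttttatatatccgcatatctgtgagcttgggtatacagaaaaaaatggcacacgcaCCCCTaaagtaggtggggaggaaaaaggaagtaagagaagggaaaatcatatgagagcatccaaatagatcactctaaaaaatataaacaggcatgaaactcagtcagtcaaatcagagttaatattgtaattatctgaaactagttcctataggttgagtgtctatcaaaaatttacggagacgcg
ATG19 held AGGGG 170, GATAAG 87 and GCCGCC 43 bases before its start. ATG34 held AGGGG 187 bases before its start, on the opposite strand, and none of the other 3.

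Receptors of organelles were mixed. ATG32, the mitophagy receptor of the outer mitochondrial membrane, stood at 11.1, 9.42 and 10.5 CPM in young libraries 1 to 3 and 14.7, 14.6 and 14.1 CPM in aged libraries 1 to 3. The groups were separate, with a log2 fold change of 0.48 (edgeR adjusted p = 0.00149, SE 0.097). ATG33, a mitochondrial protein that promotes mitophagy, stood at 10.4, 10.2 and 11.3 CPM in young libraries 1 to 3 and 15.9, 18.7 and 17.4 CPM in aged libraries 1 to 3, a difference of 0.71 (edgeR adjusted p = 0.000161, SE 0.099). ATG36, the receptor of peroxisomes, and ATG40, a receptor of the endoplasmic reticulum, had log2 fold changes of 0.18 and 0.046 and did not pass (edgeR adjusted p = 0.311 and 0.737). ATG40 passed as higher with the offset on GC content (0.33, edgeR adjusted p = 0.0191). ATG39, the receptor of the nuclear envelope, is listed under its locus tag YLR312C and so lies outside the 32. It stood at 18.3, 19.6 and 15.8 CPM in young libraries 1 to 3 and 44.1, 48.0 and 41.0 CPM in aged libraries 1 to 3, and its rise of 1.31 (edgeR adjusted p = 3.17e-06, SE 0.098) was above that of each ATG gene found by symbol.

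ATG11, the scaffold that links receptors to the Atg1 kinase, stood at 40.3, 29.7 and 36.5 CPM in young libraries 1 to 3 and 44.7, 43.9 and 43.5 CPM in aged libraries 1 to 3. Young replicate 2 was low, the other young libraries came near the aged ones, and the difference was 0.31 (edgeR adjusted p = 0.0205, SE 0.10). It did not pass without aged replicate 1 (0.30, edgeR adjusted p = 0.0651) or with the offset on coding length (0.20, edgeR adjusted p = 0.0555). The level of ATG11 per level of ATG17, the scaffolds of selective and bulk autophagy, was 0.137, 0.0835 and 0.122 in young libraries 1 to 3 and 0.175, 0.154 and 0.188 in aged libraries 1 to 3, per kb. ATG26, a sterol glucosyltransferase known for pexophagy in Komagataella, stood at 76.1, 62.7 and 65.4 CPM in young libraries 1 to 3 and 109.8, 100.1 and 106 CPM in aged libraries 1 to 3, a log2 fold change of 0.63 (edgeR adjusted p = 0.000129, SE 0.085).

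The 2 ATG genes found by symbol whose products act inside or on the vacuole were higher. ATG15, the lipase that opens autophagic bodies, stood at 7.40, 4.90 and 7.80 CPM in young libraries 1 to 3 and 12.6, 12.1 and 11.1 CPM in aged libraries 1 to 3. Young replicate 2 was again lowest, and the log2 fold change was 0.83 (edgeR adjusted p = 0.00107, SE 0.16). ATG22, an exporter of amino acids from the vacuole, stood at 20.8, 13.6 and 15.8 CPM in young libraries 1 to 3 and 34.5, 35.4 and 33.6 CPM in aged libraries 1 to 3. The aged values lay close together above all young ones, a difference of 1.04 (edgeR adjusted p = 7.36e-05, SE 0.13). ATG22 and ATG34 were the 2 members called at least 2-fold higher, where 5.91% of all features were. ATG42, a vacuolar carboxypeptidase listed under YBR139W, was higher by 0.52 (edgeR adjusted p = 7.52e-05, SE 0.064). The last 2 ATG genes under locus tags went in opposite directions. ATG45 (YIL024C), a receptor of glycogen, was higher by 0.51 (edgeR adjusted p = 0.00232, SE 0.11) but did not pass with the offset on GC content (0.20). ATG44 (YIL156W-B), a fission factor of mitophagy, had 117, 178 and 125 CPM in young and 72.8, 76.8 and 61.1 CPM in aged libraries 1 to 3, a log2 fold change of −0.99 (edgeR adjusted p = 0.000259, SE 0.15).

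Autophagy genes without an ATG symbol were followed as 4 lists. Of 9 vacuolar hydrolases and Cvt cargo proteins, 7 were higher (77.8%, against 32.7% of all features) and 0 lower, with a median log2 fold change of 1.03. With the offset on GC content 7 were higher and 1 was lower, or 2 lower with the replicate block. Of all features, that offset gave 1840 higher and 2236 lower, or 2006 and 2351 with the block. PRB1, the vacuolar proteinase B, rose from 36.7, 33.5 and 32.9 to 99.8, 89.4 and 95.2 CPM in libraries 1 to 3 of each group, a change of 1.46 (edgeR adjusted p = 2.30e-07, SE 0.076). PEP4, the protease that activates the others, rose by 1.11 (edgeR adjusted p = 2.36e-06, SE 0.079) and the cargo mannosidase AMS1 by 1.33 (edgeR adjusted p = 4.28e-07, SE 0.075). APE1, the main Cvt cargo, was at 38.7, 41.4 and 36.6 and 79.7, 86.0 and 76.4 CPM in the young and aged libraries 1 to 3, higher by 1.05 (edgeR adjusted p = 2.80e-06, SE 0.077). PHO8, a phosphatase used in autophagy assays, and CPS1 had log2 fold changes of 0.095 and 0.014 and did not pass (edgeR adjusted p = 0.312 and 0.882).

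Genes for fusion of the autophagosome with the vacuole ran the other way. Of 13, 0 were higher and 9 were lower (69.2%, against 30.8% of all features), with a log2 median of −0.33. YPT7, the Rab GTPase of the vacuole, had 979, 1189 and 1009 CPM in young libraries 1 to 3 and 626, 723 and 573 CPM in aged libraries 1 to 3, a change of −0.73 (edgeR adjusted p = 0.000344, SE 0.11). CCZ1, part of the exchange factor of Ypt7, fell by 0.65 on the log2 scale (SE 0.088, edgeR adjusted p = 0.000136), and VPS18, of the tethering complex HOPS, was at −0.57 (edgeR adjusted p = 0.000236, SE 0.085). The list changed most with the offset on GC content, which gave 0 higher and 4 lower (2 and 5 with the replicate block). It also changed with total counts only, which gave 5 higher and 0 lower. Over all 6755 features, that offset gave 1840 higher and 2236 lower (2006 and 2351 with the block), and total counts only gave 4639 and 562. YPT7, CCZ1 and VPS18 did not pass with total counts only, under which they were at −0.21, −0.13 and −0.049, and VPS18 did not pass with the offset on GC content either (−0.14). MON1, the partner of CCZ1, had a log2 fold change of 0.030 and did not pass (edgeR adjusted p = 0.726).

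Of 12 core partners, 2 were higher and 2 were lower (16.7% each, against 32.7% and 30.8% of all features), and 8 did not pass. Total counts only gave 11 higher and 0 lower, the offset on GC content 4 and 3, that on coding length 2 and 5, and upper-quartile scaling 4 and 1. Over all 6755 features these settings, in this order, gave 4639 and 562, 1840 and 2236, 1852 and 2501, and 2509 and 1821. Leaving out single libraries gave 2 to 4 higher, with 4 without young replicate 1, and 1 to 3 lower, with 1 without aged replicate 1 or aged replicate 3. CUE5, a receptor of ubiquitylated proteins, was higher by 0.57 (edgeR adjusted p = 6.93e-05, SE 0.069), as was HRR25, a kinase that phosphorylates receptors, by 0.53 (edgeR adjusted p = 0.000238, SE 0.080). Of 22 regulators, 8 were higher and 8 lower (36.4% each, near the 32.7% and 30.8% of all features). With total counts only, 15 were higher and 0 lower, beside 4639 and 562 of all 6755 features. NPR3 and NPR2, subunits of a complex that restrains the TOR kinase complex 1, were lower, at −0.72 (edgeR adjusted p = 3.29e-05, SE 0.077) and −0.67 (edgeR adjusted p = 0.000165, SE 0.094). Neither passed with total counts only (−0.20, edgeR adjusted p = 0.0666, and −0.15, edgeR adjusted p = 0.168). IML1, the other listed subunit of that complex, had a log2 fold change of −0.013 and did not pass (edgeR adjusted p = 0.888). RPH1, a histone demethylase that represses ATG genes, was higher, at 0.56 (edgeR adjusted p = 0.000159, SE 0.078), while UME6, the repressor of ATG8 in growing cells, was lower, at −0.45 (edgeR adjusted p = 0.000961, SE 0.083). Other listed regulators also went both ways. RPD3 was higher, at 0.51 (edgeR adjusted p = 0.00123), PHO23 was lower, at −0.22 (edgeR adjusted p = 0.0211), and SIN3 did not pass (−0.12, edgeR adjusted p = 0.141). The part of these regulators in ATG levels was not tested.

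**Figure D4:**
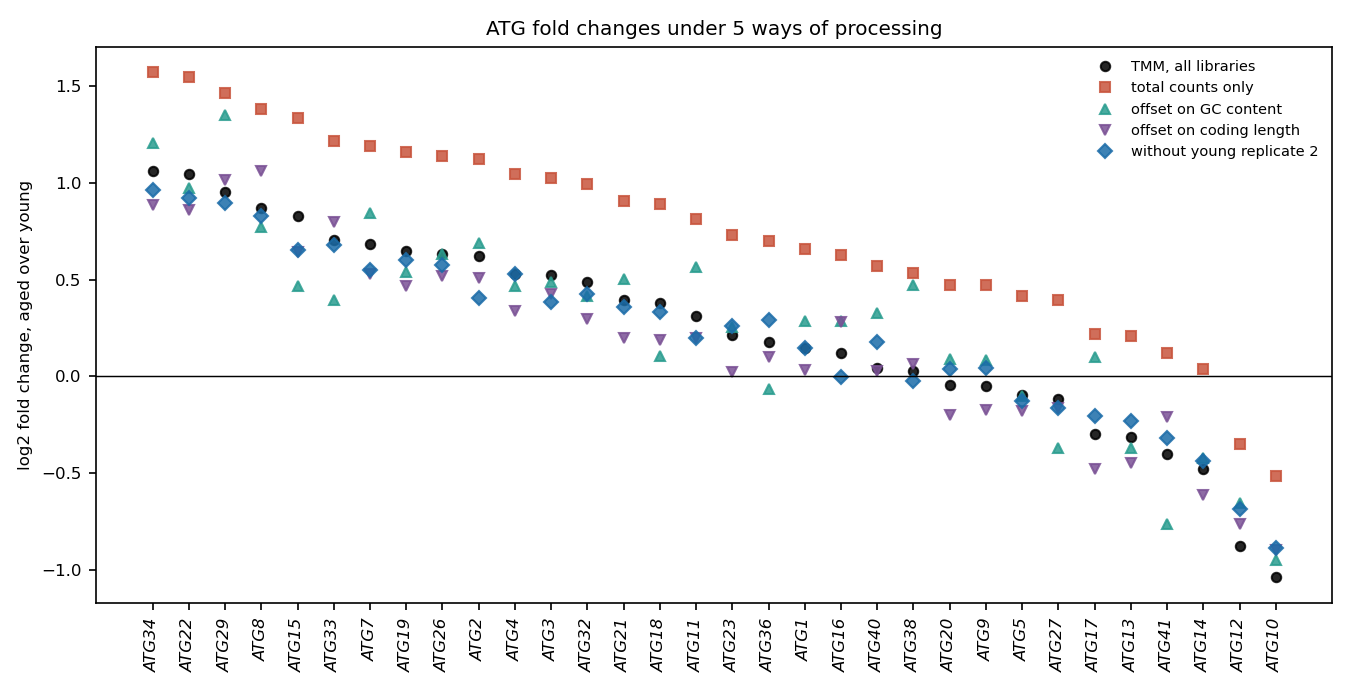
Log2 fold change of each ATG gene, aged over young, with TMM scaling and under 4 alternatives. With total counts only all points shift upward by about the 0.54 of the median feature. This carries ATG13, ATG14, ATG17 and ATG41, which were called lower with TMM, above 0. It does the same for ATG5, ATG9, ATG20 and ATG27, which were not called. ATG10 and ATG12 are below 0 in each of the 5.

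The median coding length was 1497 bp for the 16 ATG genes called higher and 798 bp for the 6 called lower, beside 1392 bp and 841.5 bp for all annotated features called higher and lower. The median young level was 10.84 CPM for the ATG genes called higher and 40.33 CPM for those called lower. For all annotated features called higher and lower it was 26.74 and 93.73 CPM. Under the offset on coding length, 13 ATG genes were higher and 6 lower, beside 1852 and 2501 of all 6755 features. Under the offset on GC content 19 were higher and 6 lower, beside 1840 and 2236. ATG8, at 354 bp the shortest member, was higher under both (1.06 and 0.77), and ATG2, at 4779 bp the longest, was higher under both as well (0.51 and 0.69).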

How the data were processed

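The authors deposited estimated counts, without normalization, as 1 table of features by libraries. In a library, 54.3% to 59.5% of the values were fractional. The submitters' processing notes name cutadapt 2.6, STAR 2.7.6a, featureCounts of Subread 1.6.2 and build R64. Their settings, including strand, are not given in the sources used here, so antisense or overlapping reads may be divided. Columns were matched to samples by library name, and 0 were left unassigned.

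Counts were rounded, filtered with filterByExpr (minimum count 10) and scaled with TMM. Aged and young libraries were compared with edgeR 4.0.16 in R 4.3.3 (glmQLFit and glmQLFTest, group as the only term, two-sided, Benjamini-Hochberg over 6755 features, called at 0.05). SEs were derived from the F statistic. CPM values are unrounded counts over the TMM-scaled library size, and within-batch ratios are log2 of CPM plus 0.5. The counting error at the lowest ATG count in a library (112) was 9.45%, beside a common biological coefficient of variation of 8.73%. No molecular identifiers are stated.

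The 32 ATG genes were matched by locus tag to the RefSeq annotation of R64, as were 6129 of 7127 features, which gave coding length, GC content and upstream sequence. Gene lists came from general knowledge. Members and lists were chosen with earlier results of these data known. The text gives per-library values for ATG1, ATG8, ATG9 and ATG11 and for up to 3 called members with the largest change in each role, and up to 3 called genes of each further list. Further genes were chosen with their values in view, among them the 5 ATG genes under locus tags.

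Replicate numbers pair the libraries, since the labels give both members of a pair the same batch. Deviations from the group means correlated at 0.177, 0.414 and 0.164 in batches 1 to 3. Alternatives were DESeq2 size factors, upper-quartile scaling, scaling by total counts only, testing without a filter, at least 10 counts in every library, DESeq2 1.42.0 (the authors' tool, whose fold changes they shrank), limma-voom (limma 3.58.1), a replicate block, loess offsets (span 0.5) on GC content or coding length with and without the block, a threshold of 0.01, and leaving out each library. Features without annotation got no offset.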

Additional observations from a re-analysis of the deposited data

How the results depend on the processing

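The counts of ATG genes called higher (16) and lower (6) stayed within 1.5 times of these values in all alternatives but total counts only, which gave 27 and 2, beside 4639 and 562 of all features (2207 and 2081 with TMM). Leaving out 1 library each gave 15 to 17 ATG genes higher and 5 to 6 lower, with 1809 to 2317 and 1760 to 2206 of all features. The replicate block gave 16 and 6, beside 2352 and 2187 of all features, and changed no call of an ATG gene. The ATG median of 0.26 was 0.33 with upper-quartile scaling and 0.77 when scaled by total counts. An offset on GC content gave 0.36, with or without the block, that on coding length 0.19 and 0.20 when the block was added, and leaving out single libraries gave 0.25 to 0.33.

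Directions reversed for these genes, and no cause was tested beyond the shift of all features by total counts. With total counts only, ATG5, ATG9, ATG13, ATG14 and ATG17 were at 0.41, 0.47, 0.21, 0.036 and 0.22, and ATG20, ATG27, ATG31 and ATG41 at 0.47, 0.39, 0.18 and 0.12. With upper-quartile scaling, ATG9 and ATG20 were at 0.017 and 0.022. With the offset on GC content, ATG9, ATG17, ATG20 and ATG36 were at 0.085, 0.10, 0.089 and −0.066, and with the block added at 0.088, 0.10, 0.091 and −0.066. When single libraries were left out, ATG9 ran from −0.13 to 0.042, ATG16 from −0.0050 to 0.27, ATG20 from −0.096 to 0.036, ATG38 from −0.047 to 0.099 and ATG40 from −0.049 to 0.18. Of these genes, ATG13, ATG14, ATG17, ATG31 and ATG41 were called with TMM and the others were not. ATG1, ATG16, ATG23, ATG36, ATG38 and ATG40 passed as higher with total counts only, at 0.66, 0.63, 0.73, 0.70, 0.53 and 0.57. At the lowest ATG count in a library, 112, counting error was about as large as the spread of replicates, so depth limits the least abundant ATG genes.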
